A study of Nicotiana tabacum with 18 samples.

Results

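The genes described here are those whose transcripts differed most between leaf samples of one and the same genotype. They were chosen on measured values: of the 69500 genes in the deposited table, 13871 had a mean level of at least 10 FPKM (fragments per kilobase of transcript, scaled to the mapped fragments of the library) over the 18 libraries, and 13671 remained after the 200 most abundant were set aside. The 300 of these with the highest variance of log2(FPKM + 1) within groups, averaged over the 6 groups, were taken, and 5 with an SD above 0.5 in fewer than 4 groups were left out. This gave 295 genes, 2.16% of the eligible genes, called the variable genes below. Because the spread within groups chose them, that spread is given only as a description and was not tested. Another 6 of the 200 most abundant genes and 73 of the 55629 genes under 10 FPKM had a variance as high as the selected ones and lay outside the rule.

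The libraries came from middle leaves of field-grown tobacco, Nicotiana tabacum, sampled 70 days after transplantation, with 3 libraries in each group. In the K326 cross, LP1 is the female parent K326, LP2 the male parent GDH11 and L their hybrid K326×GDH11. In the G70 cross, HP1 is the female parent G70, HP2 again GDH11 and H the hybrid G70×GDH11. The labels name no treatment for any group, and LP2 and HP2 carry the same genotype. According to the methods, plots stood in randomised blocks and each sample mixed leaves of several plants, so a library is a pool and not a single leaf. Nothing in the sources used here says whether a replicate number marks a block, and the p-values below measure the spread between these libraries only.

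Leaf transcripts are known to differ with the time of day, light, temperature, water status, wounding and leaf age, and many respond within hours. None of these conditions is recorded for the libraries described here. The deposited table pairs the identifiers with no gene name, none of the identifiers matched the reference gene table, and none of the 295 genes is named in the study, so they are given by identifier and no role is assigned to any of them. In whole-leaf RNA, a change in the number of cells of a type and a change in RNA per cell cannot be told apart.

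Across libraries, FPKM summed to between 756900 and 818000, and 17 libraries listed between 31474 and 33091 genes at 1 FPKM or more. LP2 replicate 2 stood apart with 27527. That library lay farthest from its group in 66.6% of the other eligible genes but in only 24.7% of the variable genes. The read depth behind each value cannot be read from FPKM, so no counting error is given.

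The variable genes had a median within-group variance of 2.65 on the log2(FPKM + 1) scale, with a range of 2.01 to 11.0, beside a median of 0.163 in the 13376 other eligible genes. Their mean level was 10.1 to 333 FPKM with a median of 32.3 FPKM, beside 21.6 FPKM in the others, and 35 of them averaged 100 FPKM or more. All 6 groups had an SD above 0.5 for 190 of the genes, 5 groups for 95 and 4 groups for 10. At the edge of the rule, Nitab4.5_0000414g0100 and Nitab4.5_0000294g0130 were inside with variances of 2.008 and 2.007. Nitab4.5_0000957g0130 and Nitab4.5_0009110g0010 were just outside with 2.005 and 2.001, so the limit falls in a continuous distribution. The 5 genes left out for having too few variable groups all took their largest SD from LP2. Nitab4.5_0009678g0020 was the extreme case, at 251.8 FPKM in LP2 replicate 2 and listed at 0 in the other 17 libraries.

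The most variable gene, Nitab4.5_0000791g0090, had a variance of 11.0. Its level was 149.7, 165.3 and 48.96 FPKM in LP1, 100.3, 0 and 0 in L, and 95.12, 0 and 2.60 in LP2. In the G70 cross it was 0.19, 51.41 and 35.80 FPKM in HP1, 0.52, 4.39 and 241.5 in H, and 0.24, 155.4 and 114.6 in HP2. In 5 of the 6 groups the gene was thus near or at the bottom of the scale in at least 1 library and above 50 FPKM in another, while LP1 was high in all 3. Its next neighbours in rank were Nitab4.5_0001780g0010 and Nitab4.5_0001780g0020, which carry consecutive identifiers on one scaffold. The first of them read 219.6, 145.9 and 30.90 FPKM in LP1, 42.99, 0.71 and 0.22 in L, and 85.20, 0.21 and 0.24 in LP2. It then read 0, 48.79 and 27.17 FPKM in HP1, 0, 0.18 and 122.0 in H, and 0.09, 91.33 and 76.19 in HP2. The 8 libraries in which it was under 1 FPKM were the 8 in which Nitab4.5_0000791g0090 was under 5 FPKM.

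A separate group of genes ran the other way. Nitab4.5_0002394g0010, the fourth gene by variance, stood at 4.97, 24.62 and 39.71 FPKM in LP1, 4.52, 376.4 and 121.8 in L, and 53.84, 206.7 and 244.7 in LP2. In the G70 cross it stood at 464.2, 25.28 and 1.14 FPKM in HP1, 520.8, 154.3 and 1.22 in H, and 302.3, 41.34 and 3.45 in HP2. Its highest library in HP1, in H and in HP2 was replicate 1 each time, where Nitab4.5_0000791g0090 was lowest. Nitab4.5_0001083g0010 and Nitab4.5_0005990g0020 had the same order in the G70 cross. The former read 527.7, 7.74 and 2.24 FPKM in HP1 but 503.9, 142.7 and 3.38 in H. The latter read 249.0, 2.11 and 0.98 FPKM in HP1 but 303.1, 63.24 and 0.85 in H.

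**Figure D1:**
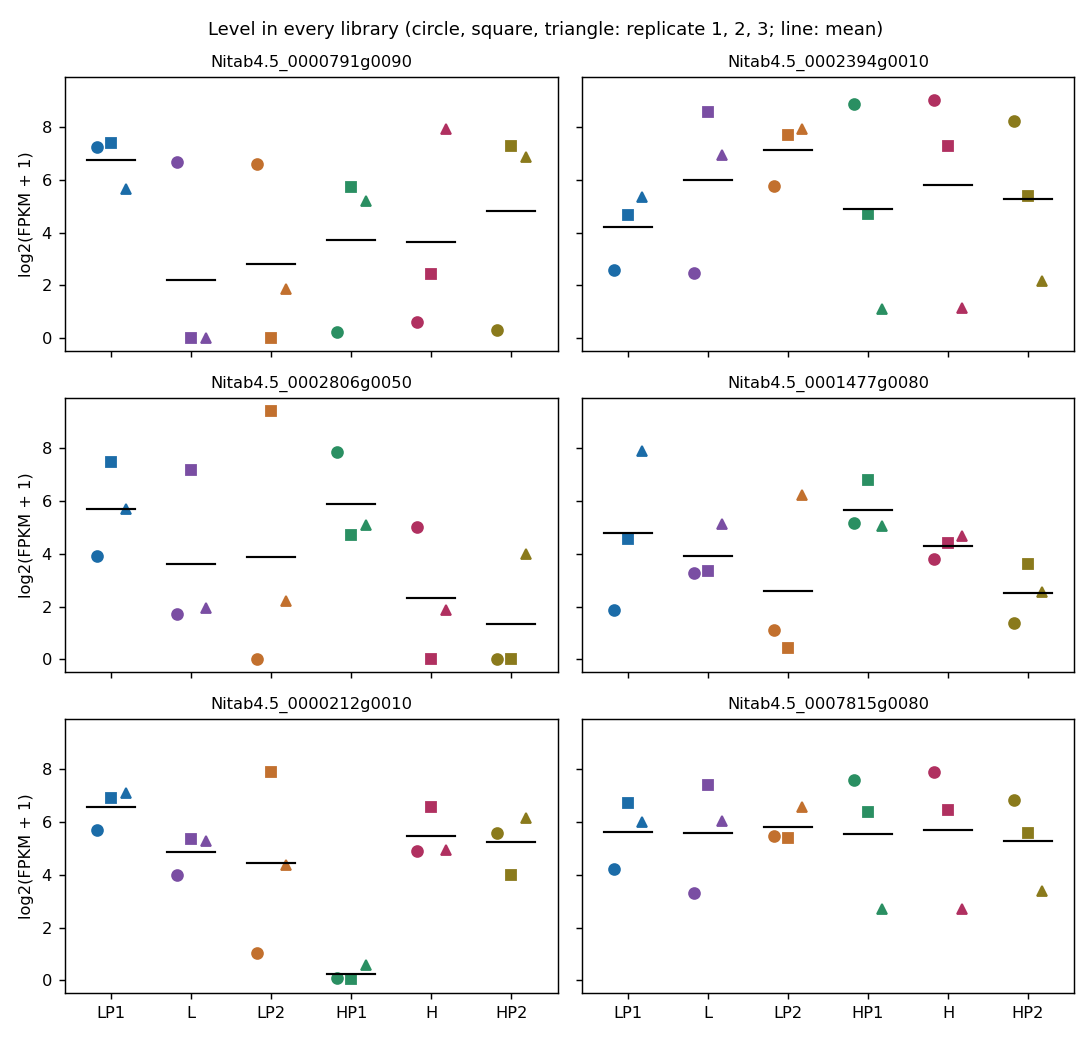
Level of 6 variable genes on the log2(FPKM + 1) scale in every library, with groups on the horizontal axis, a circle, square and triangle for replicates 1, 2 and 3, and a black line at each group's mean. Nitab4.5_0000791g0090 and Nitab4.5_0002394g0010 oppose each other between the high and low libraries of each group but LP1, though not at every step. Nitab4.5_0002806g0050 and Nitab4.5_0001477g0080 follow neither, Nitab4.5_0000212g0010 lies under 1 FPKM only in HP1, and Nitab4.5_0007815g0080 has nearly equal group means.

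Most of the remaining leading genes followed Nitab4.5_0000791g0090. Nitab4.5_0000072g0590, Nitab4.5_0004111g0010, Nitab4.5_0001383g0170 and Nitab4.5_0007495g0030, ranked 9 to 12, had variances between 6.76 and 7.15. Each was under 4 FPKM in both L replicate 2 and L replicate 3 and above 20 FPKM in L replicate 1. Nitab4.5_0009646g0040, ranked 8, shared this in L with 46.42, 0.69 and 0 FPKM, but LP2 read 25.83, 110 and 0, so LP2 replicate 2 was its highest library of all. Nitab4.5_0002806g0050, ranked 5, followed neither pattern: it read 13.91, 175.3 and 51.27 FPKM in LP1, 2.30, 142.6 and 2.89 in L, 0, 684.2 and 3.61 in LP2, 229.2, 25.30 and 33.11 in HP1, 31.71, 0 and 2.70 in H, and 0, 0 and 15.03 in HP2.

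Among all variable genes, 24 (8.14%) were listed at 0 in at least 1 library, beside 0.411% of the other eligible genes. For 43 genes, 1 library was under 1 FPKM while another library of the same group was at 50 FPKM or more.

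The variation of the 295 genes was largely shared. After the mean of its own group was subtracted from every value, 1 principal component held 69.6% of the variance of the variable genes, the next 11.3% and the one after it 5.91%. The same calculation on the other eligible genes gave 45.0% for their first component. An axis computed from those other genes alone still carried 57.5% of the variance of the variable genes. For the median variable gene, 77.4% of the within-group variance lay along the common axis, beside 22.04% for the median of the other genes. At least 50% lay on it for 236 of the 295 genes (80%), beside 22.5% of the others, and at least 75% for 168 (56.9%), beside 5.95%. These shares describe the genes that defined the axis and were not tested.

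**Figure D2:**
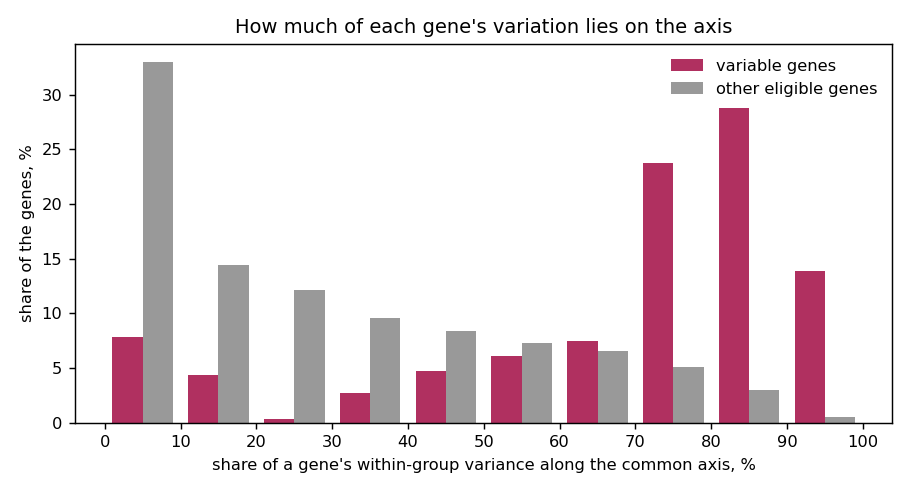
Share of each gene's within-group variance that lies along the common axis (horizontal axis, in percent, in steps of 10) against the share of genes in percent, for the 295 variable genes and the 13376 other eligible genes. Most variable genes sit at the right, with 80% of them at or above a share of 50%, while 32.97% of the other genes fall in the lowest step.

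By the direction of their loading the genes fell into 2 opposed sets. The first set, with 155 genes, contained Nitab4.5_0002394g0010, Nitab4.5_0001083g0010 and Nitab4.5_0005990g0020, which had the largest loadings, followed by Nitab4.5_0001589g0010 and Nitab4.5_0000129g0260. The second set, with 140 genes, was led by Nitab4.5_0000791g0090, Nitab4.5_0001780g0010, Nitab4.5_0001780g0020, Nitab4.5_0001383g0170 and Nitab4.5_0007495g0030. Of the first set, Nitab4.5_0000129g0260 was the most abundant of all variable genes with a mean of 333 FPKM, and it reached 1987 FPKM in LP2 replicate 2 against 8.58 FPKM in LP1 replicate 2.

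**Figure D3:**
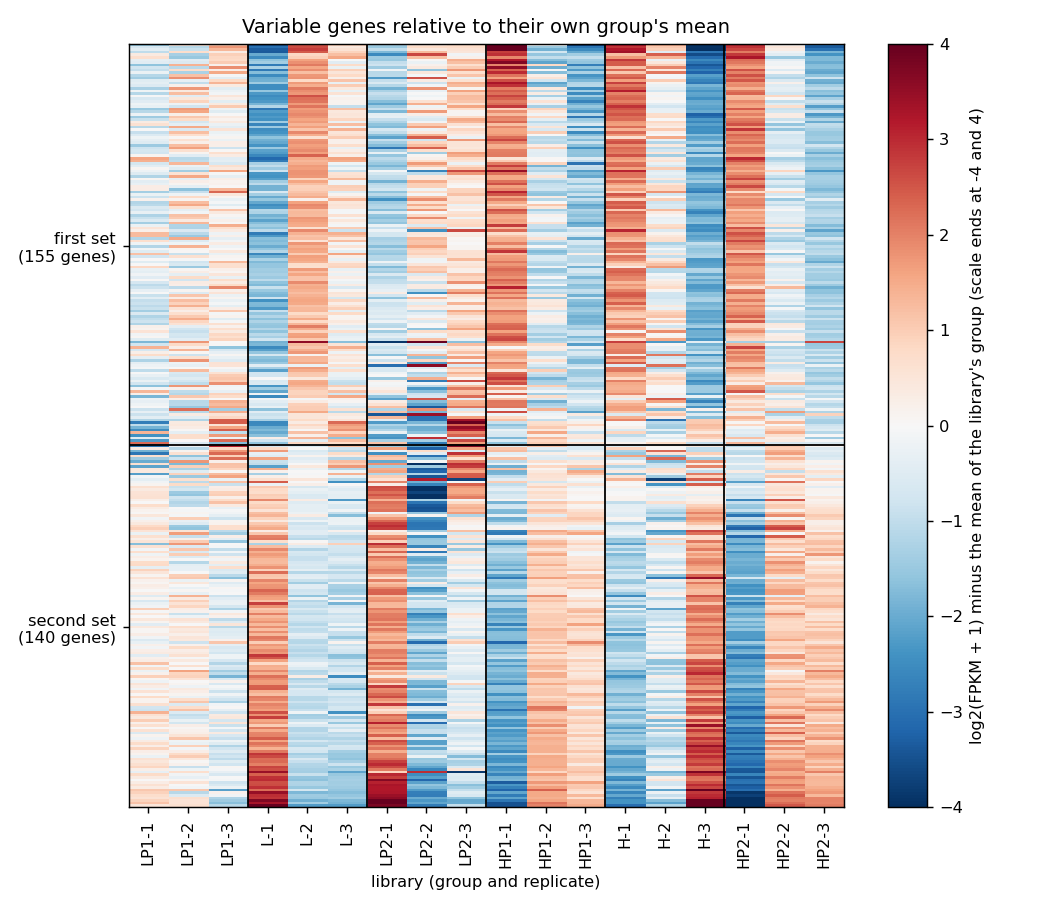
The 295 variable genes (rows, ordered by loading, with the 155 genes of the first set above the 140 of the second) in the 18 libraries (columns, by group and replicate), coloured by log2(FPKM + 1) minus the mean of the library's own group. The sets have opposite colours in nearly every library, the contrast is faint in LP1 and strong in the other 5 groups, and replicate 1 of HP1, H and HP2 shares one pattern.

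The level of each set by library shows how far the groups were split. In LP1 the median gene of the first set was at 8.86, 11.28 and 16.92 FPKM and that of the second at 58.00, 48.11 and 42.61. In L the first set was at 7.65, 77.69 and 32.29 FPKM and the second at 31.71, 5.14 and 4.97. All 3 LP1 libraries thus had the second set above the first, whereas L had this order only in replicate 1. LP2 behaved as L did, with 13.30, 34.83 and 56.23 FPKM for the first set and 40.91, 1.31 and 9.13 for the second. HP1 read 79.15, 14.97 and 7.74 FPKM for the first set and 4.15, 35.79 and 30.32 for the second. H read 80.07, 26.92 and 5.69 FPKM against 5.27, 8.38 and 51.06, and HP2 read 52.54, 14.85 and 6.42 against 4.03, 53.80 and 39.44. In HP1 and HP2 only replicate 1 had the first set above the second, and in H replicates 1 and 2 did.

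The difference of the means of the first and second set on the log2(FPKM + 1) scale was −2.41, −1.75 and −1.21 in LP1, −2.04, 3.38 and 2.43 in L, and −1.35, 3.34 and 2.41 in LP2. In the G70 cross it was 3.64, −1.21 and −1.73 in HP1, 3.66, 1.46 and −2.95 in H, and 3.46, −1.85 and −2.51 in HP2. It was negative in 10 libraries and positive in 8, with no library between −1.21 and 1.46. Every group except LP1 had libraries on both sides of this gap of 2.67, and the ranges of those 5 groups overlapped each other. The genes were chosen for spread within groups and the sets were split by the same deviations. A wide separation of libraries within groups is therefore built in, and these values are a description and no test.

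**Figure D4:**
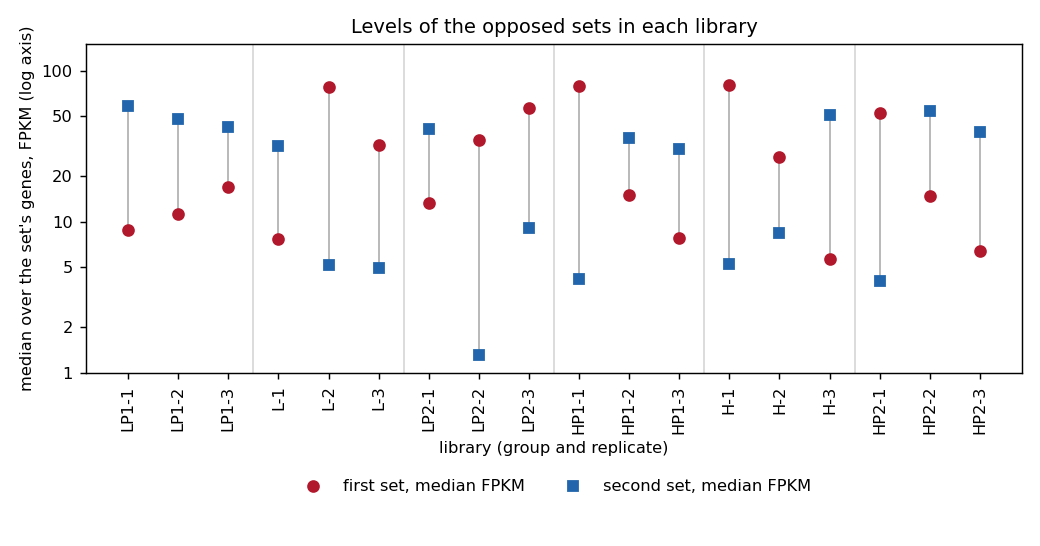
Median FPKM (log axis) over the 155 genes of the first set (circles) and the 140 genes of the second set (squares) in each of the 18 libraries, with a grey line joining the medians of 1 library. In LP1 the second set lies above the first in all 3 libraries, and in each other group the order changes between libraries.

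LP1 was also the least variable group. The median SD of the variable genes was 0.7997 in LP1, 1.59 in L, 1.58 in LP2, 1.74 in HP1, 1.95 in H and 1.75 in HP2. In the other eligible genes the medians were 0.272, 0.206, 0.515, 0.302, 0.363 and 0.259 in the same order of groups. The group least variable in the other genes was therefore L, and LP1 had the smallest SD for 186 of the variable genes. The fold between the highest and the lowest library was 2.93 for the median variable gene in LP1 and 13.2 in H, with 8.13 to 9.67 in the other 4 groups. H gave the largest SD for 90 genes, LP2 for 74 and LP1 for 2.

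**Figure D5:**
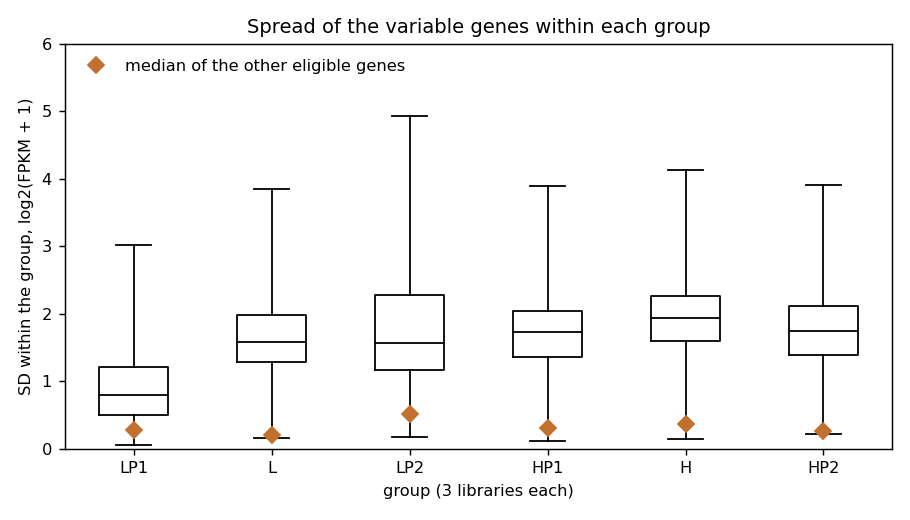
SD of log2(FPKM + 1) among the 3 libraries of each group for the 295 variable genes (boxes show the quartiles, the line the median and the whiskers the full range) and the median of the other eligible genes (diamonds). The box of LP1 is the lowest, at a median of 0.7997, and those of the other 5 groups have medians from 1.58 to 1.95.

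A single library was often the one farthest from its group. It was HP1 replicate 1 for 235 of the 295 genes (79.7%), HP2 replicate 1 for 231 (78.3%) and L replicate 1 for 225 (76.3%). H replicate 3 was farthest for 185 (62.7%) and LP2 replicate 1 for 156 (52.9%). In the other eligible genes the shares were 64.2%, 57.05%, 54.5%, 41.1% and 19.4% in the same order of libraries. HP1 replicate 1, HP2 replicate 1 and L replicate 1 thus also stood farthest in most of the other genes. Of the first set, 139 of 155 genes were highest within their group in HP1 replicate 1, 129 in H replicate 1 and 141 in HP2 replicate 1. Of the second set, 130, 96 and 135 of 140 were lowest there. In L replicate 1 the pattern was turned round, with 147 genes of the first set at their lowest in the group and 131 of the second at their highest. The sets were defined by these same deviations, so the counts by set follow from that definition and are a description only.

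Same-numbered libraries of a cross often fell on the same side of their group means. In replicate 1 the deviations had the same sign for 278 of the 295 genes between HP1 and HP2, 276 between H and HP2, 273 between HP1 and H, and 275 between L and LP2. In replicate 3 the counts were 273, 278 and 274 in the G70 cross, but in replicate 2 they were 203, 123 and 95 for the same pairs of groups. LP1 and L shared the sign for 226, 144 and 166 genes in replicates 1, 2 and 3. Deviations within a group sum to 0, so the 3 counts of a pair are not independent, and the counts are given without a test.

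Selecting genes in each cross alone asks whether the same genes vary in libraries the choice did not use. Taking the 300 most variable eligible genes by the 9 libraries of the K326 cross and again by the 9 of the G70 cross gave 105 genes in common, 35.0% of each list, where each list is about 2.2% of the genes eligible in its cross (2.19% and 2.21%). The genes chosen in the K326 cross had a median variance of 1.46 in the G70 cross, beside 0.118 for the genes not chosen. Of the 283 that were eligible there, 171 fell in the top 10% by variance and 27 in the less variable part below the median. The genes chosen in the G70 cross had a median variance of 1.73 in the K326 cross, beside 0.173, with 234 of 268 in the top 10% by variance and none below the median. When each list was split by its first component, computed separately in both crosses, 297 of the 300 genes chosen in the G70 cross and 228 of the 300 chosen in the K326 cross kept to the same side. The sign of a component is arbitrary and was turned to give the larger count. The count therefore always covers the larger part of a list, and no such count was made for other genes. The number in common was 60 without LP2 replicate 1, 66 without L replicate 1 and 159 without LP2 replicate 2, and it was 82 to 135 without any other single library.

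The rule did not use the means of the groups, and these were compared with limma, a linear model per gene with moderated variance, on log2(FPKM + 1) with Benjamini-Hochberg adjustment over all genes tested. Since the spread within groups is the error term of these tests, genes selected for a wide spread were at a disadvantage. Between the 6 groups, 0 of the 295 variable genes passed an adjusted p of 0.05 in limma's F test, beside 1.29% of all 34960 genes tested. At an unadjusted p under 0.05 there were 2, beside 7.66% of all genes. With the replicate number of each cross as a block, the same test called 81 variable genes (27.5%), beside 2.52% of all genes, so the count depends on whether the numbers are taken to pair the libraries. Over all genes tested, same-numbered libraries deviated together in all 3 numbers for HP1 with HP2, LP1 with LP2 and L with LP2, but not for H with either parent or L with LP1. Leaving out LP2 replicate 1 or LP2 replicate 2 gave 1 gene each, and leaving out any other single library gave 0. The ratio of the variance between group means to that within groups had a median of 0.221 in the variable genes and 0.309 in the others. The group means of the median variable gene nevertheless ranged over 2.12 log2 units, beside 0.62 in the others, and its libraries within a group over 2.98, beside 0.573.

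In the comparisons of hybrids with their parents, a gene was called at an adjusted p up to 0.05 if it changed by 1 or more on the log2 scale in either direction. Between H and HP1, limma called 1 of the 295 variable genes, beside 0.488% of all genes tested. It called 0 between H and HP2 (background 0.421%), 0 between L and LP1 (0.17%), 0 between L and LP2 (0.266%) and 0 between HP2 and LP2, the GDH11 leaves of both crosses (0.00286%, a single gene). At an unadjusted p under 0.05 from limma, with no limit on the fold, the counts of variable genes were 6 for H against HP1 (background 4.14%), 3 for H against HP2 (3.69%), 11 for L against LP2 (6.58%) and 2 for HP2 against LP2 (5.69%). In these 4 comparisons the share of variable genes was below that of all genes.

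L against LP1 differed from this, with 92 variable genes (31.2%) at an unadjusted p under 0.05, beside 12.6% of all genes. Of the 92, 71 were lower in L and belonged to the second set, and 19 of the 21 that were higher in L belonged to the first. The variable genes share most of their variation between libraries, so these calls are not independent of each other. Their number does not add replicates to the comparison of 3 libraries with 3. None of these passed the adjustment, the smallest adjusted p being 0.162 in limma. L replicate 1 carried the order of the sets seen in LP1, and without it 14 variable genes (4.75%) were called, 7 higher and 7 lower in L, beside 0.989% of all genes. It was the library farthest from its group in 225 of the variable genes, so it supplied much of the variance that the rule used. Leaving it out leaves the other L libraries displaced the opposite way in those genes. The 14 are therefore a description, and nothing is read from their excess over the background. Without LP2 replicate 1 or LP2 replicate 2, whose libraries share in the estimate of the spread, 1 gene was called each time.

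The gene called between H and HP1 was Nitab4.5_0000212g0010. It was listed at 0.06, 0.03 and 0.52 FPKM in HP1, at 28.61, 94.40 and 29.94 in H and at 47.45, 14.88 and 70.54 in HP2. In the K326 cross it was at 51.51, 120.5 and 136.8 FPKM in LP1, 14.81, 40.58 and 38.15 in L and 1.08, 236.7 and 19.52 in LP2. Each HP1 library was below each of the other 15 libraries, and the widest spread, from 1.08 to 236.7 FPKM, was in LP2. The log2 fold change on the log2(FPKM + 1) scale was 5.23 (SE 0.61, adjusted p = 0.00512 from limma), and it stayed between 4.68 and 5.52 when each library of the cross was left out in turn. With a pseudocount of 0.1 the log2 fold change was 7.53, so the pseudocount sets its size, HP1 lying near 0, but not the call. Only 17.1% of its within-group variance lay along the common axis, and its ratio of between-group to within-group variance, 1.91, was the highest of the variable genes.

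Other genes at the high end of that ratio were Nitab4.5_0011112g0010 (0.941), Nitab4.5_0017193g0020 (0.720), Nitab4.5_0007360g0020 (0.710) and Nitab4.5_0000519g0150 (0.623). Nitab4.5_0017193g0020 was at 0.93, 2.98 and 1.12 FPKM in LP1 and at 79.55, 69.34 and 21.69 in L, without overlap. In LP2 it ranged from 0.83 to 209.6 FPKM, which spans all the values of LP1 and L. Nitab4.5_0007360g0020, with 96.0% of its variance on the axis, read 112.4, 110.6 and 63.92 FPKM in LP1 but 29.10, 3.18 and 1.71 in L. None of these passed the adjusted threshold in any of the 5 comparisons.

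At the low end, groups had nearly the same mean despite wide spread. Nitab4.5_0007815g0080 had the lowest ratio, 0.00865, followed by Nitab4.5_0002498g0080 (0.0191), Nitab4.5_0002498g0070 (0.0234), Nitab4.5_0000116g0330 (0.0315) and Nitab4.5_0000014g0290 (0.0338). Nitab4.5_0007815g0080 was at 190.1, 83.26 and 5.52 FPKM in HP1, 239.2, 87.67 and 5.48 in H and 113.5, 46.95 and 9.45 in HP2. The order of the 3 replicate numbers was the same in each group of that cross. All 5 genes were of the first set.

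The calls in the G70 cross depended on which libraries were used. For replicate 1 of HP1 and of HP2 and replicate 3 of H, the study's comparison of RNA-seq with qRT-PCR lists no RNA-seq value, and no reason is stated. They were also the libraries farthest from their own group in 235, 231 and 185 of the variable genes, so they supplied much of the variance that the rule used. Deviations within a group sum to 0, so leaving out these libraries leaves the others of their groups displaced the opposite way in the very genes the rule picked. The counts that follow are therefore a description and no test, and nothing is read from their excess over the background. Without them, the difference of the sets was −1.21 and −1.73 in HP1, 3.66 and 1.46 in H, and −1.85 and −2.51 in HP2, so that H no longer overlapped its parents. limma then called 118 variable genes between H and HP1, 37 higher in H (background 2.72% of all genes) and 81 lower (4.32%). It called 127 between H and HP2, 34 higher (2.72%) and 93 lower (3.87%). Both comparisons use the same H libraries.

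For the 118 genes the median size of the log2 fold change was 2.81 without the 3 libraries and 0.592 with all libraries, and the median SE was 0.421 and 1.30. For the 127 genes it was 2.99 against 0.806, with a median SE of 0.410 and 1.28. By set, 37 of the called genes of the first set were higher in H than in HP1 and 1 was lower, and 80 of the second set were lower. Against HP2, 34 of the first set were higher and 93 of the second were lower. These directions follow from how the sets were defined, since the loadings came from the same deviations.

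In that smaller fit the largest rises over HP1 were in Nitab4.5_0005990g0020 (log2 fold change 5.82, SE 1.14), Nitab4.5_0001083g0010 (5.66, SE 1.26) and Nitab4.5_0000212g0010 (5.41, SE 0.80). The largest falls were in Nitab4.5_0009646g0040 (−5.38, SE 0.26), Nitab4.5_0001780g0010 (−5.11, SE 0.30) and Nitab4.5_0001780g0020 (−4.75, SE 0.26). Against HP2 the largest rises were in Nitab4.5_0007348g0010 (4.13, SE 0.56), Nitab4.5_0000129g0260 (4.09, SE 0.67) and Nitab4.5_0007099g0040 (3.90, SE 0.47). The largest falls there were in Nitab4.5_0001780g0010 (−6.28, SE 0.30), Nitab4.5_0001780g0020 (−5.96, SE 0.26) and Nitab4.5_0000791g0090 (−5.55, SE 0.57). Of these 10 genes, only Nitab4.5_0000212g0010 was called with all libraries. Nitab4.5_0007348g0010 shows the difference between the fits: H was at 35.92, 64.49 and 0.86 FPKM and HP2 at 14.16, 4.12 and 0.55, which overlap only through H replicate 3.

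Some variable genes are neighbours. Their identifiers fall on 273 scaffolds, and 13 pairs, made of 26 genes (8.81%), have consecutive identifiers on one scaffold. All 13 pairs belong to the same set. Of the 110 eligible genes that stand next to a variable gene by identifier, counting each pair from both sides, 26 (23.6%) were variable genes themselves, beside 2.16% of eligible genes. The likeness of a pair, given as Pearson's r of group-centred values over the 18 libraries, had a median of 0.965, a range of 0.659 to 0.993 and was at least 0.9 in 12 pairs. Whether neighbours share reads through similar sequence was not tested, since no genome of this build was used here.

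The pair with the highest summed variance was Nitab4.5_0001780g0010 and Nitab4.5_0001780g0020, with r = 0.993. Next came Nitab4.5_0001006g0040 and Nitab4.5_0001006g0050 (r = 0.955), which peaked together in H replicate 1 at 230.8 and 127.4 FPKM against at most 18.70 FPKM in the other H libraries. In the pair Nitab4.5_0000072g0590 and Nitab4.5_0000072g0600 (r = 0.932) the levels differed widely, with means of 26.8 and 281.5 FPKM, yet in each group but LP1 both were lowest in a library where the first set was high. The pairs Nitab4.5_0000129g0250 with Nitab4.5_0000129g0260 (r = 0.965), Nitab4.5_0002498g0070 with Nitab4.5_0002498g0080 (r = 0.982) and Nitab4.5_0000319g0090 with Nitab4.5_0000319g0100 (r = 0.936) belong to the first set.

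The likeness was not limited to the variable genes. Among the 13871 genes of at least 10 FPKM, 510 had an r of at least 0.9 with Nitab4.5_0000791g0090 over the 18 libraries, of which 87 were variable genes, and 128 had such an r with Nitab4.5_0002394g0010, of which 40 were. The closest to Nitab4.5_0000791g0090 were Nitab4.5_0001815g0050 (r = 0.994), Nitab4.5_0000470g0040 (r = 0.993) and Nitab4.5_0014760g0010 (r = 0.991). Nitab4.5_0000470g0040 was no variable gene, and its levels of 38.39, 20.24 and 20.58 FPKM in L and 18.47, 22.35 and 42.76 in H trace the same order over a much narrower range. The closest to Nitab4.5_0002394g0010 were Nitab4.5_0000014g0290 (r = 0.992), Nitab4.5_0000014g0320 (r = 0.990) and Nitab4.5_0002710g0070 (r = 0.972), and only the first of these was a variable gene. Nitab4.5_0000014g0290 read 725.8, 209.8 and 65.57 FPKM in HP1, with 856.3, 365.2 and 51.58 in H. All points of such an r come from the same 18 libraries, and a few widely separated libraries weigh heavily in it.

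For 37 variable genes (12.5%) less than 25% of the variance lay on the common axis. Their largest deviation was in LP2 replicate 2 for 18 of them, below the group mean in 15 of those, and in LP2 replicate 3 for 10. LP2 replicate 2 had the low number of detected genes given above, and its part in these 18 genes was not tested. The gene with the smallest share on the axis, Nitab4.5_0001477g0080 (0.00545%), had a pattern of its own: 2.62, 22.86 and 236.5 FPKM in LP1, 8.75, 9.09 and 33.86 in L, 1.16, 0.34 and 73.25 in LP2, 35.05, 110.6 and 31.81 in HP1, 12.92, 19.98 and 24.40 in H, and 1.59, 11.10 and 4.83 in HP2. It was highest in LP1 replicate 3, and replicate 3 was also the highest of L, LP2 and H.

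A set of 6 other variable genes, picked out after their values were seen, followed that gene with an r of at least 0.8, and all 6 were among the 37. The closest were Nitab4.5_0007488g0040 (r = 0.982), Nitab4.5_0000926g0140 (r = 0.944), Nitab4.5_0002172g0020 (r = 0.887) and Nitab4.5_0009182g0010 (r = 0.870). Nitab4.5_0009182g0010 was at 3.10, 34.90 and 151.0 FPKM in LP1 and at 3.44, 5.05 and 366.0 in LP2. LP1, which varied little along the common axis, thus varied widely in these genes.

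The study addressed potassium (K+) content, and its potassium genes were placed on the same scale. None of the 26 potassium transport genes it lists was a variable gene, and 10 of them were eligible. The same held for the 10 identifiers in its qRT-PCR tables, of which 9 were eligible. Of these identifiers, Nitab4.5_0006395g0030 stands only in the table of cycle values and has no primers listed. The most variable potassium genes were both of CIPK6, a protein kinase that in Arabidopsis acts with a calcium sensor on the phloem potassium channel AKT2. They ranked 469 and 489 of 13671 by within-group variance. Nitab4.5_0004815g0040 (CIPK6) was at 162.0, 199.1 and 150.8 FPKM in LP1, 156.9, 48.33 and 80.72 in L, and 145.4, 6.54 and 64.05 in LP2. In the G70 cross this gene was at 31.65, 150.9 and 153.4 FPKM in HP1, 46.58, 72.12 and 276.4 in H, and 55.00, 133.9 and 161.9 in HP2. It ran in the direction of the second set, with 70.2% of its variance on the axis. Its order of libraries was that of the second set's medians only in LP2 and H.

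At least 50% of the variance lay on the axis for 12 of the 26 potassium genes. Of the 10 eligible ones, only both CIPK6 genes and Nitab4.5_0001744g0070 (AKT2) reached this, beside 22.5% of eligible genes outside the variable set. The rest of the 12 lie under 10 FPKM, where that background share does not apply. Of the 12, 11 ran with the second set: both CIPK6 genes, all 6 KAT1/2 genes (inward potassium channels of guard cells), 1 of the GORK genes (outward channels of guard cells) and both TPK genes (vacuolar potassium channels). The exception was Nitab4.5_0001744g0070 (AKT2), at 58.6%, which ran with the first set. Of the 10 qRT-PCR identifiers, 6 had at least 50%, all with the first set, and Nitab4.5_0000063g0110 ranked highest by variance, at 353. How genes in general divided between the directions was not counted, so nothing is read from the split in either list. Both lists share the AKT2 gene, and 16 of the potassium genes lie under 10 FPKM, where the pseudocount and counting noise weigh more.

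The guard-cell channel genes of the potassium list, when summed, divided the libraries as the sets did. All 8 averaged under 10 FPKM, and no other genes of guard cells were examined. How many other genes divide the libraries alike was not counted. The 8 KAT1/2 and GORK genes summed to 29.81, 50.39 and 29.52 FPKM in LP1, 38.22, 14.87 and 13.78 in L, and 32.50, 4.17 and 17.23 in LP2. In the G70 cross the sum was 12.55, 29.48 and 29.58 FPKM in HP1, 14.76, 20.29 and 33.27 in H, and 15.96, 45.43 and 35.64 in HP2. The sum was below 21 FPKM in all 8 libraries with a positive difference of the sets and above 29 FPKM in all 10 with a negative one. Of the 8 genes only Nitab4.5_0000420g0100 (KAT1/2) was listed at 0 in any library, in LP2 replicate 2, and the part of guard-cell content in the variable genes was not tested. The 2 AKT2 genes, markers of phloem, summed to between 67.9 and 241.6 FPKM but ran opposite ways. Nitab4.5_0001744g0070 (AKT2, mean 97.6 FPKM), which carried most of the sum, was at 75.21, 189.5 and 217.9 FPKM in L and at 197.4, 56.19 and 45.45 in HP2, highest where the first set was high. Nitab4.5_0000816g0130 (AKT2, mean 24.8 FPKM) was at 27.66, 18.42 and 23.72 FPKM in L and at 25.27, 29.22 and 27.49 in HP2, with 42.6% of its variance on the axis in the direction of the second set. In LP2 replicate 2, where the first set was high, the sum was the lowest of all libraries. The guard-cell sum was lowest there as well. That library listed only 27527 genes at 1 FPKM or more, and the part of this in its low sums was not tested.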

How the data were processed

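Leaf RNA of 18 libraries (6 groups of 3) was sequenced in pairs of reads. According to the methods, the authors trimmed the reads, mapped them to the K326 genome with TopHat2 and quantified genes with RSEM, while the submitters' processing notes name HISAT2, StringTie and RSEM. Versions are not given in the sources used here. The deposited table is called a count table but holds FPKM values with decimals, scaled by the authors to transcript length and mapped fragments, so the count test of the study could not be used. FPKM hides the depth and makes each gene relative to the rest of its library. The 6 files of the authors' group means were not used.

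The rule was applied in Python 3.11.15 with pandas 2.3.3 and NumPy 2.4.6, using a pseudocount of 1. Components were taken after subtracting group means. Group means were tested with limma 3.58.1 in R 4.3.3 on log2(FPKM + 1) with an intensity trend, over genes that reached 1 FPKM in 3 or more libraries of the fit. The fit held the 9 libraries of a cross for hybrids against parents, and all 18 for the F test and for HP2 against LP2. Both steps were also run on simulated data. The simulation for limma gave each gene independent noise, and the one for the rule planted a strong shared axis. They check the code and not its behaviour under the variation of these libraries.

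The variable genes, gene lists and tests were chosen with earlier results of these data known. Genes were named by fixed rules: the 12 most variable, the 5 largest loadings at each end of the axis, the largest called changes, both edges of the threshold, the 6 most variable neighbouring pairs, the 3 closest genes to the leading gene of each direction, and the 5 lowest and highest ratios of variance. Of the hybrid-parent comparisons, replicate numbers counted as pairs only for L against LP2, since the deviations of same-numbered libraries correlated above 0.1 in all 3 numbers there (0.545, 0.253 and 0.235 over all genes tested). This also held for the parents HP1 with HP2 (0.586, 0.278 and 0.493) and LP1 with LP2 (0.251, 0.212 and 0.293). For H the correlation in number 2 was −0.445 with HP1 and −0.225 with HP2, and for L with LP1 it was below 0.1 in all 3 numbers. A test of whether the change from parent to hybrid differed between the crosses was added after the data were seen. At the thresholds of the other comparisons it called no variable gene, and the wide spread of these genes put them at a disadvantage here too.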

Additional observations from a re-analysis of the deposited data

How the results depend on the processing

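Selecting the variable genes again gave between 210 and 278 of the 295 under quantile normalization, median-of-ratios scaling, a pseudocount of 0.1 or a mean of at least 5 or 20 FPKM, and between 237 and 278 when each library was left out. Without replicate 1 of HP1 and of HP2 and replicate 3 of H it gave 155. The genes chosen in both crosses numbered between 60 and 159 when each library was left out, and the first component held between 65.3% and 76.2% of the variance. Without the same 3 libraries, 118 variable genes were called for H against HP1, 37 higher and 81 lower, beside 2.72% and 4.32% of all genes. For H against HP2 there were 127, 34 higher and 93 lower, beside 2.72% and 3.87%. Over the 6 groups there were 5, for which no share of all genes is given. These libraries supplied much of the variance that the rule used, so nothing is read from these counts. Leaving out each library gave between 0 and 1 over the 6 groups and between 0 and 14 for L against LP1, and it changed no count in the other 4 comparisons. The 14 came without L replicate 1, with the limit given above.

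With the unadjusted p, limma called 2 over the 6 groups, 6 for H against HP1, 3 for H against HP2, 92 for L against LP1, 11 for L against LP2 and 2 for HP2 against LP2, with or without the limit on the fold in the pairwise comparisons. A pseudocount of 0.1 called 1 over the 6 groups. With the replicate number as a block, 81 of the variable genes (27.5%, beside 2.52% of all genes) were called over the 6 groups. For L against LP1 the block gave 2 (0.678%, beside 0.185% of all genes), and it changed no other count. The sources do not say that the numbers mark a block, and by correlation they paired only some of the groups in the fit over all 6. The cause of these changes was not tested. FPKM gives no depth, so low values carry unknown counting error.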
